A study of Caenorhabditis elegans with 30 samples.

Results

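The smaller of the 2 piRNA cluster domains of C. elegans chromosome IV was described here as the 1-kb windows at 4500 to 7000 kb of the deposited ce6 table, leaving out windows that the table marks as misannotated. This gave 2495 of 99764 windows (6 of the 2501 positions were left out), covering bases 4500001 to 7001000. The comparison region, called the centre, was the 5936 windows of bases 7001001 to 12971000 of the same chromosome. The limits were given as coordinates, and no measured value chose the windows. A window is named by its start in kb, so the window at 4996 kb holds bases 4996001 to 4997000.

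The study asked which H3K9 histone methyltransferases (HMTs) nuclear RNAi needs in the worm germline, and whether silencing is lost with the mark. The 25 libraries were ChIP-seq of synchronized young adults grown at 19 °C, 15 of H3K9me3 and 10 of Pol II phosphorylated at serine 2 of its C-terminal repeat (S2P, the elongating form). Values were RPKM, reads per kilobase normalized to the aligned reads of the library. The 5 strains were WT, set-32 (ok1457), the double mutant (met-2 n4256 with set-25 ok5021, shown as met-2 set-25 in the plots), the triple mutant that joins these alleles to set-32, and hrde-1 (tm1200). Each strain was grown on OP50 bacteria, on gfp RNAi bacteria (a control trigger) or on oma-1 RNAi bacteria, with 1 library per strain and feeding, and Pol II was measured on the RNAi feedings only. The libraries of different feedings stood as repeats of 1 strain (n = 3 for H3K9me3, n = 2 for Pol II), so the spread between libraries holds feeding as well as growth and preparation. Whole animals were used, so germline and somatic chromatin are mixed, and fewer cells with a mark cannot be told apart from less of it per cell. No mutated gene lies on chromosome IV. The labels give WT, the double mutant and hrde-1 libraries 1 common prefix and the set-32 and triple mutant libraries other prefixes, so a prefix difference cannot be told apart from the set-32 and triple mutant genotypes against WT.

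In C. elegans each piRNA is transcribed by Pol II from its own very short gene behind a small upstream motif, and most of these genes are crowded into 2 domains of chromosome IV. Germline piRNAs act with the Argonaute PRG-1. Targets found by PRG-1 can be handed to secondary siRNAs that HRDE-1, the nuclear Argonaute, carries into germline nuclei, where silenced loci gain H3K9me3. The HMTs SET-32, SET-25 and MET-2 each methylate H3K9. The RefSeq gene table (assembly WBcel235) listed 15360 piRNA genes, 14710 of them (95.8%) on chromosome IV. It is built on another assembly than the windows, so the genes were not placed on them, and whether a given window holds a piRNA gene was not analysed here.

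The median window of the domain held an estimated 20 to 72.0 reads in the H3K9me3 libraries and 10 to 32.01 reads in the Pol II libraries. These came from the size of the step that 1 read makes in the values, which put the libraries at 2445000 to 7226000 and 3817000 to 6782000 aligned reads. All 2495 windows passed the filter on low values (a mean of at least 3 RPKM over the 25 libraries). The WT libraries differed in contrast: the median of the H3K9me3(−) windows, which lie between the 5th and 25th percentile of WT on OP50, was 2.88 RPKM on OP50, 4.37 on oma-1 RNAi and 6.13 on gfp RNAi.

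The median H3K9me3 of the domain was slightly above that of the centre in every library. The domain median was 6.40 RPKM in WT on OP50, 8.29 on gfp RNAi and 7.52 on oma-1 RNAi, against centre medians of 6.08, 7.93 and 7.02. Over the 15 libraries the ratio of domain to centre ran from 1.04 to 1.14, with a geometric mean of 1.08 (mean log2 ratio 0.11 ± 0.04 SD, n = 15). All 15 libraries lay above 1 (exact two-sided sign-flip permutation test, p = 6.1e-05, the smallest possible here, adjusted p = 0.00018 over 3 comparison regions). All libraries share the same windows, so the test shows only that the ratio repeats between libraries. The ratio was 1.067 to 1.102 in the triple mutant and 1.045 to 1.071 in WT. The paper describes the triple mutant as lacking detectable H3K9me3. Inputs were not analysed here, so the part of ChIP background in the ratio was not tested. Against the larger piRNA cluster (bases 13500001 to 17201000, 3689 windows) the domain was lower in 14 of 15 libraries and equal in the other, with a geometric mean ratio of 0.940 (exact p = 0.00012, adjusted p = 0.00018). Against the left arm (bases 1 to 4500000, 4483 windows) no common direction was found (exact p = 0.18). There the 9 libraries of WT, set-32 and hrde-1 had ratios of 0.80 to 0.936, and the 6 of the double mutant and the triple mutant had ratios of 1.07 to 1.14.

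Few windows of the domain belonged to the most heavily methylated part of the genome. Of the H3K9me3(+) windows, the top 5% of WT on OP50, 24 lay in the domain (0.962% of its windows), against 0.438% of the centre, 3.25% of the larger cluster and 6.56% of the left arm. H3K9me3(−) windows made up 21.9% of the domain and 29.2% of the centre.

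Pol II was lower in the domain than in the centre in every library. The WT domain medians were 3.87 RPKM on gfp RNAi and 3.00 on oma-1 RNAi, against 5.70 and 4.15 in the centre. Over the 10 libraries the domain medians were 2.62 to 6.09 RPKM and the ratio to the centre 0.625 to 0.833, with a geometric mean of 0.739 (mean log2 ratio −0.44 ± 0.13 SD, n = 10). The ratio was under 1 in 10 of 10 libraries (exact two-sided sign-flip permutation test, p = 0.0020, the smallest possible, also after adjustment). The larger cluster was lower still, with medians of 1.83 to 4.86 RPKM and a domain ratio of 1.2 to 1.43, above 1 in 10 of 10 libraries (exact p = 0.0020). Windows with much Pol II were less scarce, with 8.98 to 10.1% of the domain above the 90th percentile of all windows of the library. The centre had 12.2 to 14.5% and the larger cluster 5.53 to 6.24% of windows above that level.

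**Figure D1:**
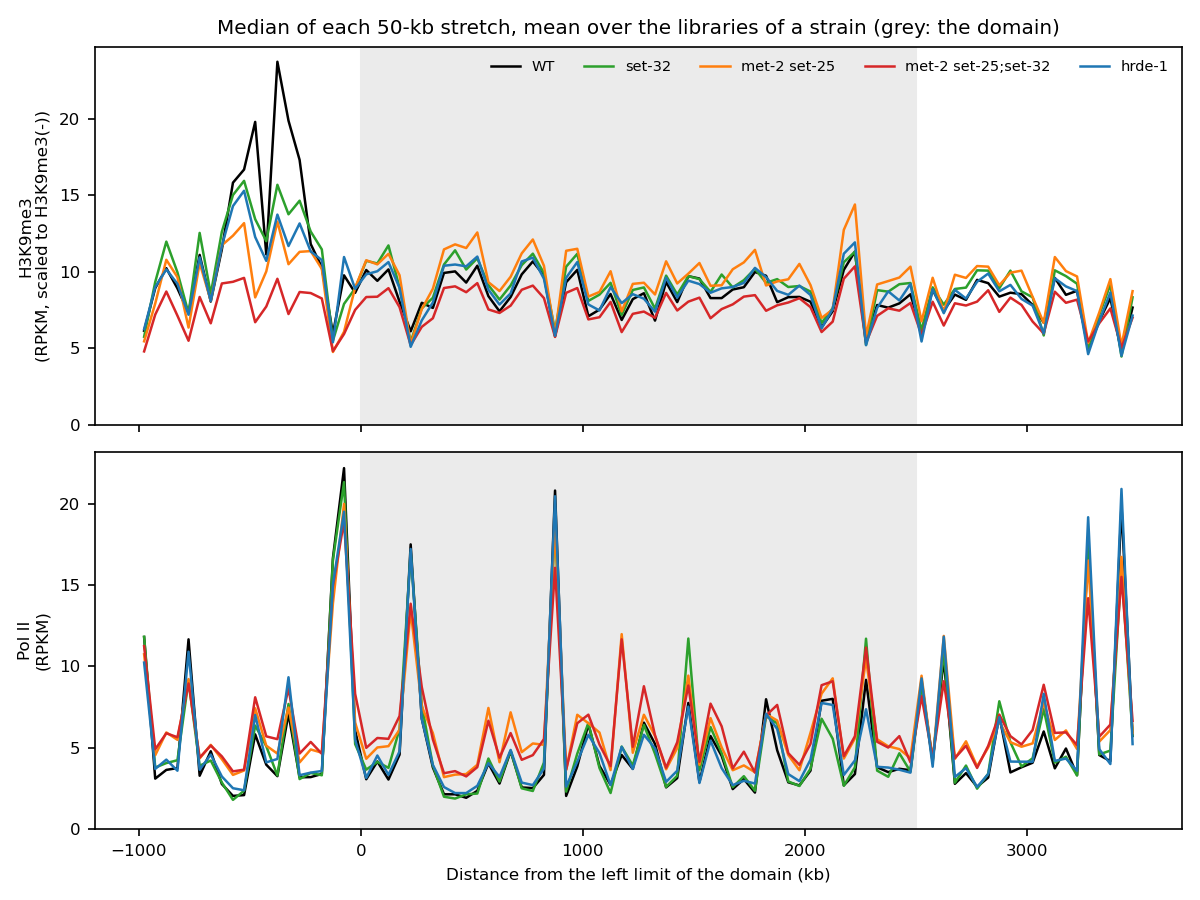
H3K9me3 (upper panel, RPKM scaled to the H3K9me3(−) median) and Pol II (lower panel, RPKM) along chromosome IV, as the median of each 50-kb stretch averaged over the libraries of a strain, against the distance in kb from the left limit of the domain (grey). WT has its highest H3K9me3 left of the domain, in the stretch centred at −375 kb (23.8, against 15.7 in set-32, the next strain), and no strain mean inside the domain is above 14.4.

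The ratio to the centre differed little between strains, and no test of it passed. For H3K9me3 it averaged 1.06 in WT (SD 0.0133), 1.08 in set-32, 1.10 in the double mutant, 1.09 in the triple mutant and 1.07 in hrde-1 (n = 3 each), and an exact permutation of strain labels within feedings gave p = 0.26. The double mutant ratios (1.08 to 1.14) lay above all WT ratios (1.04 to 1.07), at the smallest p that 3 against 3 allows (exact p = 0.1, adjusted p = 0.4 over the 4 mutants). For Pol II it averaged 0.701 in WT, 0.708 in set-32, 0.786 in the double mutant, 0.802 in the triple mutant and 0.712 in hrde-1 (n = 2 each, exact p = 0.38 over strains). The Pol II ratios of the double mutant and of the triple mutant lay above both WT ratios in both feedings, at the smallest p that 2 against 2 allows (exact p = 0.33, adjusted p = 0.67 over the 4 mutants). The Pol II ratio tended to be low in libraries whose median over all windows was low. Of all libraries, hrde-1 on oma-1 RNAi had the lowest of both (0.625 and 3.40 RPKM) and the double mutant on gfp RNAi the highest of both (0.833 and 6.29 RPKM). The WT libraries went the other way, with 0.723 and 3.46 RPKM on oma-1 RNAi and 0.679 and 4.69 RPKM on gfp RNAi. Whether the median over all windows plays a part in the ratio was not tested.

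**Figure D2:**
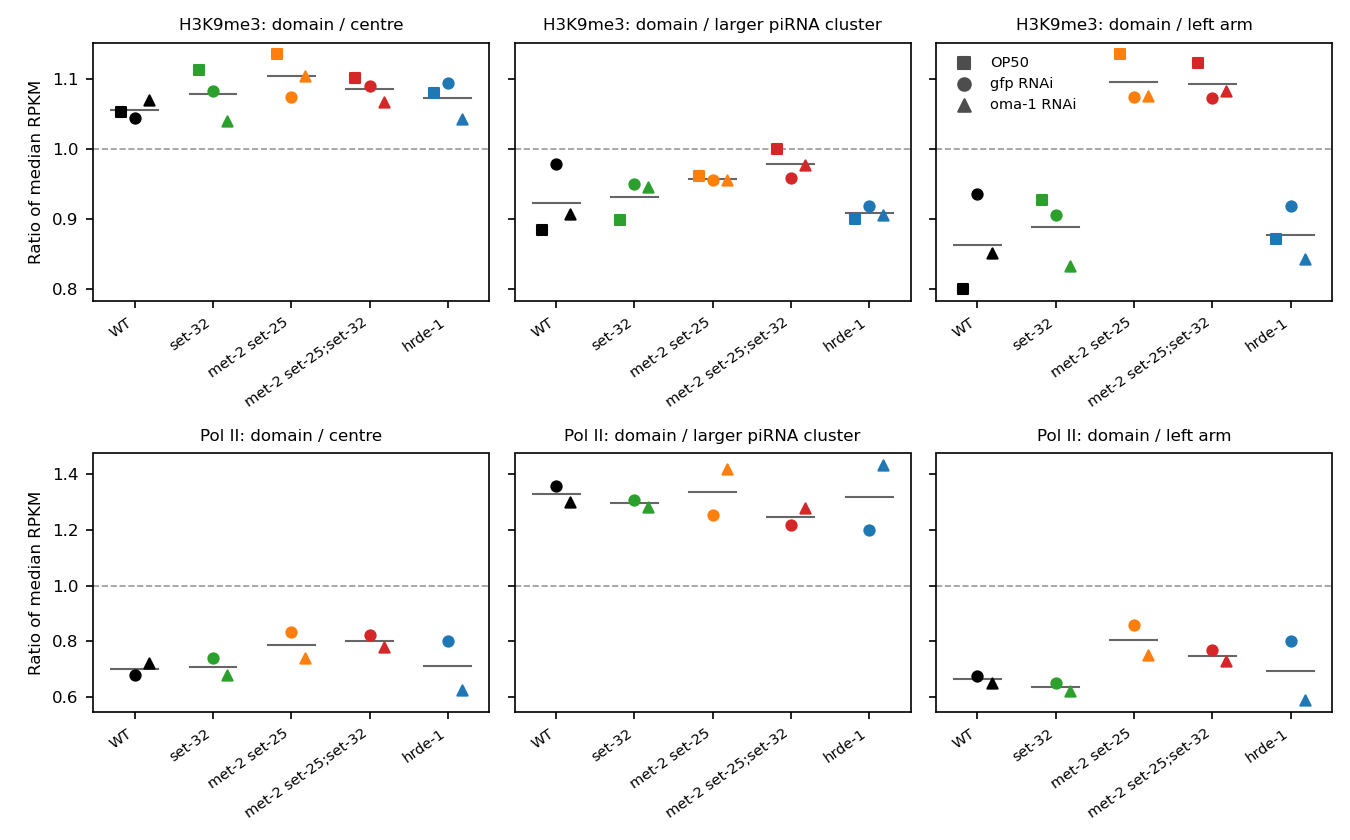
Median of the domain divided by the median of the centre, the larger piRNA cluster or the left arm in each library (points, shape by feeding), with the strain mean as a bar. H3K9me3 ratios to the centre were 1.04 to 1.14 and Pol II ratios 0.625 to 0.833. The double mutant lies above all WT libraries in both, the triple mutant in Pol II, and the H3K9me3 ratio to the left arm lay above 1 in the double mutant and the triple mutant only.

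Along the domain both marks varied between 100-kb bins. The bin at 4700 to 4799 kb had both the lowest H3K9me3 (mean of library medians 6.28 RPKM, range 4.57 to 7.79) and the highest Pol II (10.96 RPKM, range 10.1 to 13.5). Its Pol II level was 2.83 times the domain median. The highest H3K9me3 bin was at 5200 to 5299 kb (10.2 RPKM, range 7.65 to 12.6), and the lowest Pol II bin at 4900 to 4999 kb (2.60 RPKM, range 1.31 to 4.37). Unscaled H3K9me3 in the bins at 4700 and 5200 kb was 6.245 and 8.77 RPKM in WT and 7.26 and 11.3 in the triple mutant. The contrast between these bins was thus also seen in the triple mutant, and the part of ChIP background in it was not tested. The window with the most Pol II of the domain, at 4748 kb, lies in the 4700-kb bin, with 195 and 267 RPKM in the WT libraries and 132 to 227 RPKM in the mutants. Its H3K9me3 was 2.04 to 7.39 RPKM. The other 5 windows highest in Pol II were at 6974, 5472, 5086, 6906 and 6325 kb, and none of the 6 was called in any mutant for either mark. Without a call, Pol II was lower than in WT at all 6 in the triple mutant (log2 change −0.82 to −0.51, limma adjusted p 0.064 to 0.255). The same held in the double mutant (−0.55 to −0.20), while set-32 and hrde-1 moved in both directions. The lower quartile of domain Pol II went the other way, with strain means of 2.245 RPKM in WT, 3.515 in the double mutant and 3.635 in the triple mutant. The cause was not tested.

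Part of the high H3K9me3 lay in short islands. An island was a run of at least 3 windows, with gaps of at most 1 kb, in the top 10% of the genome by mean scaled H3K9me3 over the 15 libraries. The domain had 73 windows in that top 10% (2.93% of its windows; 1.57% in the centre) and 8 islands with 38 windows. The windows of the top 10% outside islands stood in shorter runs or alone. The 6 highest, in order, were at 6005 to 6012 kb (island 1), 4921 to 4926 kb (island 2), 4768 to 4770 kb (island 3), 6344 to 6357 kb (island 4), 5772 to 5774 kb (island 5) and 4717 to 4719 kb (island 6). The study marks germline nuclear RNAi-dependent heterochromatin (GRH) and germline nuclear RNAi-dependent transcriptional silencing (GRTS) windows, from earlier work on the hrde-1 mutant. The domain held 5 GRH windows (4720, 4724, 6353, 6354 and 6356 kb) and 1 GRTS window (6012 kb), all in or within 5 kb of islands 1, 4 and 6. Whether libraries used here entered those lists is not given in the sources used here, so a hrde-1 change in them is not independent evidence.

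Calls of change were made per window with limma on log2(RPKM + 1), at a Benjamini-Hochberg adjusted p under 0.05 over all 99742 windows tested and a change of at least 2-fold. H3K9me3 was lower than in WT in 7 windows of the domain in set-32 (0.281%; 0.47% of all windows tested), 34 in the double mutant (1.36%; 6.08%), 45 in the triple mutant (1.80%; 9.2%) and 18 in hrde-1 (0.721%; 0.651%). In the centre the shares were 0.421, 1.15, 1.84 and 0.522% in the same order. Each call moved the same way in every feeding. H3K9me3 was higher in 1 window in set-32 (6270 kb; 0.011% of all windows), 2 in the double mutant (5040 and 6270 kb; 0.118%) and 0 in the triple mutant (0.013%) and in hrde-1 (0.0742%), both named windows chosen by the rule for largest rises. These counts rest on the WT libraries. Without WT on OP50 the 4 mutants (set-32, the double mutant, the triple mutant and hrde-1) had 1, 18, 29 and 11 windows lower, and without WT on gfp RNAi 27, 50, 73 and 24. Leaving out set-32 on OP50 left 3 in set-32. With only WT and the mutant in the fit, set-32 had 0 windows lower, the triple mutant 27 and hrde-1 10, and with a pseudocount of 5 the double mutant had 21. With depth normalization alone the triple mutant had 26 windows lower and 8 higher and the double mutant had 25 lower and 7 higher.

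**Figure D3:**
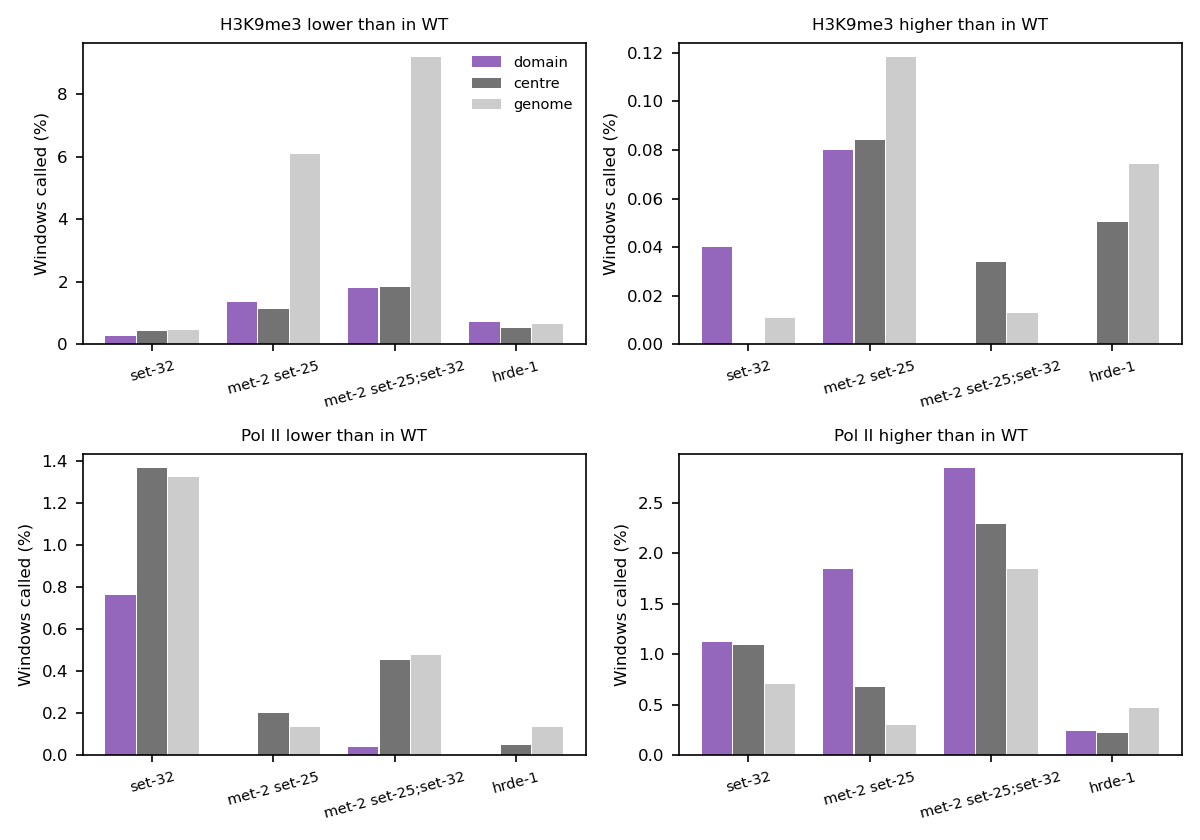
Percent of windows called lower (left) or higher (right) than WT for H3K9me3 (upper) and Pol II (lower), in the domain, the centre and all windows tested, for each mutant. In the triple mutant 1.80% of domain windows and 9.2% of all windows were lower in H3K9me3, and in the double mutant 1.84% of domain windows and 0.299% of all windows were higher in Pol II.

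The H3K9me3 calls lay mostly at islands 6, 1 and 4. Of the windows called lower, those within 10 kb of islands 6, 1 and 4 numbered 5, 0 and 2 of 7 in set-32, 9, 6 and 13 of 34 in the double mutant, 9, 8 and 15 of 45 in the triple mutant, and 9, 2 and 7 of 18 in hrde-1. The islands were ranked on the same libraries, so the overlap of falls with high levels is in part set by that ranking.

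H3K9me3 over island 6 fell in every mutant. Its mean was 52.3 RPKM in WT on OP50, 25.8 on gfp RNAi and 40.7 on oma-1 RNAi. It was 12.9, 13.5 and 17.1 RPKM in set-32 on the same feedings, 12.4, 11.7 and 13.4 in hrde-1, 8.00, 8.98 and 7.93 in the double mutant, and 5.78, 7.17 and 7.90 in the triple mutant. No mutant library reached the lowest WT library. All 3 windows were called lower in all 4 mutants, with a median log2 change of −1.38 in set-32, −2.25 in the double mutant, −2.83 in the triple mutant and −1.59 in hrde-1. Relative to the domain median the island stood at 5.56 ± 2.53 in WT (SD, n = 3), 1.64 ± 0.243 in hrde-1, 0.835 ± 0.0747 in the double mutant and 0.700 ± 0.115 in the triple mutant. Pol II over these windows was 14.6 and 17.1 RPKM in WT and 11.2 to 13.6 RPKM in the mutants, and no Pol II call was made in any of them.

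The GRH window at 4724 kb, just right of island 6, was lowest in hrde-1. It held 34.9, 16.4 and 26.3 RPKM of H3K9me3 in WT, 5.71, 4.52 and 4.81 in hrde-1, 12.3 to 14.1 in the double mutant, 9.29 to 13.9 in the triple mutant and 15.3 to 19.8 in set-32. The log2 change was −2.13 (SE 0.28, limma adjusted p = 1.0e-10) in hrde-1, −1.06 (SE 0.28, adjusted p = 0.0035) in the double mutant and −0.60 (SE 0.28, adjusted p = 0.66) in set-32. Its Pol II was 8.96 and 8.07 RPKM in WT and 15.3 and 26.5 in hrde-1, a log2 change of 1.16 that missed the threshold (limma adjusted p = 0.083). In set-32 Pol II there was lower, at 4.02 and 2.46 RPKM (log2 change −1.19, limma adjusted p = 0.024).

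Island 1 was the place in the domain where hrde-1 showed the clearest Pol II change. H3K9me3 over the island was 37.6, 24.95 and 34.2 RPKM in WT, 26.6, 24.9 and 25.3 in hrde-1, 17.6 to 21.5 in set-32, 13.3 to 16.6 in the double mutant and 12.5 to 14.8 in the triple mutant. Of its 7 windows, 7 were called lower in the triple mutant, 5 in the double mutant, 0 in set-32 and 1 in hrde-1. Mean Pol II over the island was 6.92 and 5.93 RPKM in WT and 15.8 and 14.8 in hrde-1.

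The rise in hrde-1 sat at the right edge of island 1. At 6007 to 6009 kb, where WT H3K9me3 was highest (24.3 to 51.2 RPKM), no hrde-1 library exceeded 9.95 RPKM of Pol II. Over the 3 windows at 6010 to 6012 kb Pol II was 30.0 ± 4.21 RPKM in hrde-1 and 7.76 ± 0.877 in WT (SD, n = 2 each), with 9.21 in set-32, 9.91 in the double mutant and 10.1 in the triple mutant. All 3 were called higher in hrde-1 (log2 change 1.75 to 1.86, largest limma adjusted p = 0.00042) and none in the HMT mutants. At 6010 kb the hrde-1 libraries held 34.0 and 56.6 RPKM against 11.4 and 11.3 in WT. The GRTS window at 6012 kb held 28.8 and 21.5 RPKM in hrde-1 against 8.32 and 5.38 in WT (log2 change 1.75, SE 0.25, limma adjusted p = 0.00012). H3K9me3 over the same 3 windows was 20.8 ± 3.73 RPKM in WT, 10.9 ± 1.58 in hrde-1, 11.6 ± 1.91 in the double mutant and 9.45 ± 0.430 in the triple mutant (n = 3 each). The H3K9me3 ranges of hrde-1 and the double mutant overlapped there. In each of the 3 windows both hrde-1 libraries held more Pol II than all 8 other libraries. The loss of H3K9me3 at 6010 kb in hrde-1 (log2 change −1.12, limma adjusted p = 0.022) was not called without WT on OP50 (limma adjusted p = 0.35) and in 8 further alternatives (adjusted p 0.013 to 1.0 over these 9, the lowest with a change under 2-fold).

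The span of island 4 held 3 GRH windows, 2 of them members of the island. Mean H3K9me3 was 40.9, 23.9 and 34.2 RPKM in WT, 16.7, 18.0 and 20.6 in set-32, 15.9, 16.5 and 17.3 in hrde-1, 13.4, 12.4 and 13.6 in the double mutant and 11.9, 13.0 and 13.1 in the triple mutant. All mutant libraries lay below all WT libraries. Of its 11 windows, 11 were called lower in the triple mutant, 10 in the double mutant, 4 in hrde-1 and 1 in set-32. The window at 6353 kb (GRH) fell most in hrde-1, from 36.1, 23.4 and 30.2 RPKM in WT to 4.00, 5.96 and 3.96 (log2 change −2.48, SE 0.27, limma adjusted p = 1.1e-16), against 7.75 to 10.6 in the triple mutant and 8.18 to 12.5 in the double mutant.

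Pol II over island 4 was 10.4 and 8.90 RPKM in WT, 14.8 and 18.1 in hrde-1, and 9.35 and 9.34 in the triple mutant. The window at 6357 kb was called higher in hrde-1 (log2 change 1.30, SE 0.24, limma adjusted p = 0.0033), with 23.6 and 27.9 RPKM against 9.64 and 9.99 in WT. The call was lost without hrde-1 on oma-1 RNAi (limma adjusted p = 0.094) and without the mean-variance trend (adjusted p = 0.14). It borders on 3 misannotated windows (6358 to 6360 kb) that were left out. At the 3 GRH windows the log2 change of Pol II in hrde-1 was 0.84, 0.52 and 0.95, none past the threshold (limma adjusted p = 0.18, 0.86 and 0.063).

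Fewer windows of the other islands were called. H3K9me3 over island 2 was 23.1 ± 1.75 RPKM in WT, 26.1 ± 0.873 in set-32, 21.1 ± 1.97 in hrde-1, 17.6 ± 1.73 in the double mutant and 19.6 ± 1.66 in the triple mutant (SD, n = 3), with 0 of its 4 windows called in any mutant. The RPKM levels of these islands are not scaled. In the fits, which are scaled, the median log2 change of H3K9me3 over island 2 was −0.60 in the double mutant and −0.74 in the triple mutant. It was 0.10 in set-32 and −0.11 in hrde-1. Over island 3 hrde-1 held 27.8 ± 3.01 RPKM and WT 20.01 ± 3.84, and 1 of 3 windows was lower in the triple mutant. Over island 5 it was 21.6 ± 3.00 RPKM in WT and 14.99 ± 0.826 in the triple mutant, with 2 of 3 windows called lower there and 0 in the other mutants. Of the 4 windows of the seventh island, at 6250 to 6253 kb, 2 were lower in the triple mutant. The eighth, at 6712 to 6715 kb, had none called, with 12.4 ± 2.08 RPKM in WT, 19.2 ± 0.486 in the double mutant and 18.6 ± 1.16 in the triple mutant. Relative to the domain median it stood at 1.67 in WT, 1.65 in set-32, 1.92 in the double mutant, 1.87 in the triple mutant and 1.81 in hrde-1. The island rule averages all 15 libraries, so windows whose signal is high in the HMT mutants can pass it.

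**Figure D4:**
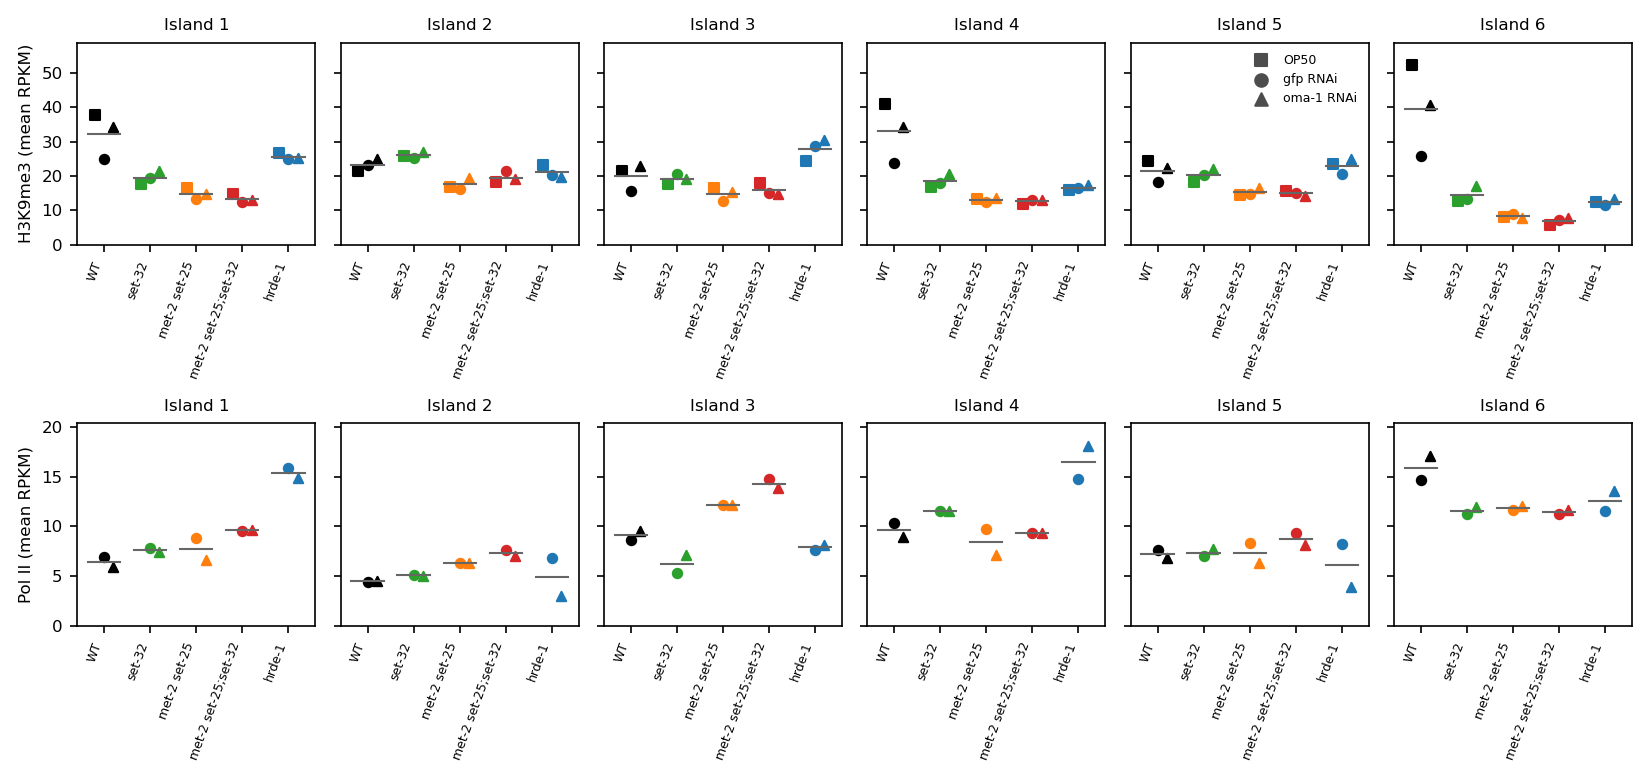
Mean RPKM of H3K9me3 (upper row) and Pol II (lower row) over each of the 6 highest H3K9me3 islands in each library (points, shape by feeding), with the strain mean as a bar. Values are not scaled. In islands 4 and 6 every mutant library lies below every WT library in H3K9me3 (after scaling, in island 6 but not in island 4). In islands 1 and 4 the hrde-1 libraries are the highest in Pol II.

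The triple mutant was also set against its parts. Against the double mutant, 0 windows of the domain were lower (0.0742% of all windows tested) and 0 higher (0.00201%) by limma, with 261 of 2495 windows at an unadjusted p under 0.05. Against set-32, 18 were lower (5.18%) and 0 higher (0.011%). That count was 54 without set-32 on OP50, 36 without the triple mutant on gfp RNAi, 5 and 4 without set-32 on gfp RNAi and on oma-1 RNAi, and 3 without the triple mutant on OP50. It was 4 with a pseudocount of 5, and depth normalization alone gave 4 lower and 9 higher.

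Pol II calls were also made in all 4 mutants. Pol II was higher than in WT in 28 windows of the domain in set-32 (1.12%; 0.704% of all windows tested), 46 in the double mutant (1.84%; 0.299%), 71 in the triple mutant (2.85%; 1.85%) and 6 in hrde-1 (0.240%; 0.464%). The centre shares were 1.10, 0.674, 2.29 and 0.219% in the same order. It was lower in 19 windows in set-32 (0.762%; 1.32%), 1 in the triple mutant (0.475%) and 0 in the double mutant (0.136%) and hrde-1 (0.135%), where 419 and 107 windows had an unadjusted p under 0.05 in either direction. Whether the domain shares differ from those of the genome was not tested, since windows are not replicates. With each library scaled to its median over all windows, the triple mutant had 104 windows lower and 33 higher, set-32 had 18 lower and 17 higher, and the counts for the double mutant (0 lower, 36 higher) and hrde-1 (0 lower, 6 higher) changed little. That scaling moved the median log2 change of all windows from 0.19 to −0.11 in the double mutant and from 0.27 to −0.11 in the triple mutant.

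Most Pol II rises of the double mutant lay in the left part of the domain. Of the 46 windows, 37 lay at 4800 to 5499 kb and 7 in a run at 5683 to 5690 kb. The stretch at 4800 to 5499 kb was chosen after the calls were seen and holds 700 of the 2495 windows of the domain. The triple mutant had 26 of its 71 in the same stretch and 8 in the run, set-32 had 6 of 28 and 0, and hrde-1 had 0 and 0. The bins of this stretch had WT medians of 2.04 to 4.84 RPKM of Pol II. The windows called in the double mutant had a median of 2.52 RPKM of Pol II and 10.8 RPKM of H3K9me3 in WT, against 3.36 and 7.45 over all windows of the domain. The ratio of the bin median to WT was 1.47 to 1.96 in the double mutant in the stretch. In the other bins it ran from 0.987 in the Pol II-rich bin at 4700 kb to 1.99 in the bin at 5600 kb, which holds the run, so bin medians outside the stretch reached the same ratios.

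The largest rise of Pol II in the double mutant was at 4996 kb. It held 3.36 and 3.23 RPKM in WT, 26.7 and 22.5 in the double mutant, 14.6 and 10.98 in the triple mutant, 3.23 and 2.08 in set-32, and 4.55 and 3.14 in hrde-1. The log2 change in the double mutant was 2.57 (SE 0.28, limma adjusted p = 6.3e-06), past the threshold in every alternative run. H3K9me3 of this window was 13.8, 12.8 and 15.9 RPKM in WT and 22.7, 14.5 and 19.9 in the double mutant, so it was not lower. At 5071 kb Pol II was 2.75 and 2.31 RPKM in WT, 18.8 and 16.6 in the double mutant and 12.5 and 10.8 in the triple mutant. At 5227 kb it was 3.16 and 1.73 RPKM in WT and 19.9 and 12.7 in the double mutant. In these windows the double mutant libraries did not overlap with those of WT, set-32 or hrde-1.

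The run at 5682 to 5690 kb, chosen after its values were seen, held higher Pol II in the same strains over 9 adjacent windows. Mean Pol II was 2.94 and 2.19 RPKM in WT, 3.42 and 2.31 in set-32, 4.10 and 1.43 in hrde-1, 12.3 and 10.9 in the double mutant, and 12.8 and 10.8 in the triple mutant. The 4 libraries of the double and triple mutants thus stood above the other 6 without overlap. The median log2 change was 1.74 in the double mutant, with 7 of 9 windows called, and 1.83 in the triple mutant, with 8 of 9 called. In set-32 and hrde-1 it was 0.15 and −0.06, with 0 called. H3K9me3 over the run was 11.5 ± 0.201 RPKM in WT, 14.2 ± 1.06 in set-32, 13.0 in hrde-1 (SD 0.9501), 10.1 ± 1.49 in the double mutant and 10.2 ± 0.975 in the triple mutant (SD, n = 3), and 2 of 9 windows were called lower in each of the last 2 strains. These H3K9me3 levels are not scaled. In the fits, which scale each library to its H3K9me3(−) median, the median log2 change of H3K9me3 over the run was −0.74 in the triple mutant. It was −0.24 in the double mutant, 0.26 in set-32 and 0.20 in hrde-1. The window at 5691 kb, next to the run, is misannotated and was left out.

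**Figure D5:**
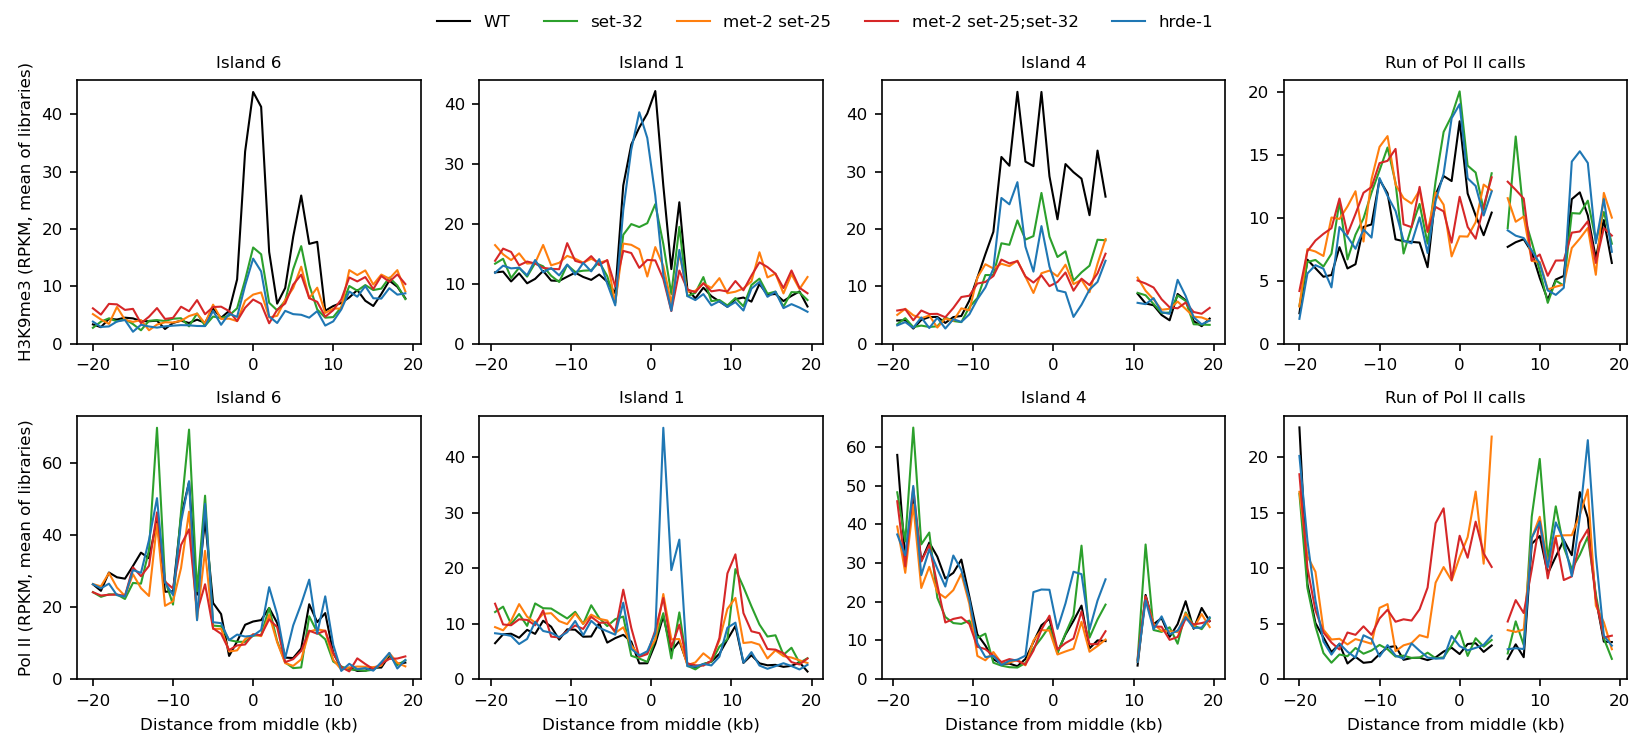
Strain means of H3K9me3 (upper row) and Pol II (lower row) in RPKM per 1-kb window, against the distance in kb from the middle of islands 6, 1 and 4 and of the run of Pol II calls; gaps are misannotated windows. hrde-1 keeps the H3K9me3 peak of island 1 but shows a Pol II peak at its right edge, and only the double mutant and the triple mutant rise in the run, to 11.6 and 11.8 RPKM on average.

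In set-32 the longest run of higher Pol II was at 6019 to 6024 kb, with 6 of 6 windows called. The set-32 libraries held 12.5 ± 0.0542 RPKM and those of the triple mutant 10.3 ± 0.541, against 4.12 ± 1.91 in WT, 7.15 ± 1.08 in the double mutant and 4.11 ± 2.84 in hrde-1 (SD, n = 2). The highest value was at 6020 kb (19.6 and 13.6 RPKM in set-32, 4.69 and 1.15 in WT, log2 change 2.31, SE 0.31, limma adjusted p = 3.5e-05). H3K9me3 over the run was 8.06 ± 0.366 RPKM in WT and 8.55 ± 1.58 in set-32. The set-32 and triple mutant Pol II libraries share a prefix that WT does not have, so this rise cannot be told apart from that difference. Pol II was lower in set-32 in 4 windows at 5659 to 5665 kb, where at 5665 kb WT held 48.7 and 30.2 RPKM and set-32 14.5 and 15.5.

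Apart from islands 1 and 4, hrde-1 rose in 2 windows, at 6086 and 6087 kb. Pol II over them was 13.7 ± 0.824 RPKM in hrde-1 and 3.44 ± 1.04 in WT, with 3.67 in set-32, 4.42 in the double mutant and 6.46 in the triple mutant (n = 2 each). At 6087 kb the log2 change in hrde-1 was 1.96 (SE 0.31, limma adjusted p = 0.00054), past the threshold in every alternative run. Pol II at 6087 kb was also called higher in the triple mutant (log2 change 1.27, limma adjusted p = 0.0255). H3K9me3 over the 2 windows was 9.84 ± 0.928 RPKM in WT and 8.93 ± 1.16 in hrde-1, and neither window was called for H3K9me3.

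The Pol II counts depend on the fit and rest on few libraries. Without the mean-variance trend, 1 window was higher and 0 were lower in set-32, and 11, 12 and 4 were higher in the double mutant, the triple mutant and hrde-1. Without the block on feeding, 19, 29, 32 and 5 windows were higher in set-32, the double mutant, the triple mutant and hrde-1. A pseudocount of 5 gave 8, 30 and 15 higher in the first 3 of these, and 2 lower in set-32. For the double mutant the 46 windows fell to 7 without its own gfp RNAi library, 3 without its oma-1 RNAi library and 21 without WT on gfp RNAi, and became 74 without hrde-1 on oma-1 RNAi. For the triple mutant the 71 became 9 and 2 without its own gfp RNAi and oma-1 RNAi libraries, 39 and 45 without WT on gfp RNAi and oma-1 RNAi, and 135 and 140 without those of hrde-1. For set-32 the 28 higher became 7 without its own oma-1 RNAi library and 18 without WT on oma-1 RNAi, and the 19 lower became 11 without the former, 31 without the latter and 8 without WT on gfp RNAi. For hrde-1 the 6 stayed between 5 and 9 when a library was left out. A strain left with 1 library was assumed to vary like the others.

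Few windows of the domain were called between feedings. For H3K9me3, oma-1 RNAi against gfp RNAi and OP50 against the RNAi bacteria each gave 0 calls by limma (at most 0.001% of all windows tested in either direction), with 16 and 609 windows at an unadjusted p under 0.05. For Pol II, 4 windows were lower (0.287%) and 0 higher (0.0251%) on oma-1 RNAi. The direction of these calls turned with the scaling: with each library scaled to its median over all windows, 0 were lower and 15 higher. No window was called lower without the block, without the trend or with a pseudocount of 5. With depth normalization alone, the median log2 change over the domain was −0.30, against −0.20 in the centre and −0.24 over all windows.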

How the data were processed

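ChIP-seq reads were aligned by the authors with Bowtie 0.12.7 to ce6 and deposited as RPKM in 1-kb windows (coverage per window normalized to sequencing depth), with 1 table for all libraries. The table also marks GRH, GRTS and misannotated windows and holds the authors' own classes of windows by H3K9me3 and by HMT mutant, which were not used. Inputs were not analysed here. Library columns were matched to samples through the library names in the study's list, and 0 columns of per-sample values stayed unused.

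Depth was estimated from the step of 1 read (83.3 to 88.8% of low values were whole within 0.1 reads), so no count test was run. For the fits, the island ranking and the profile along the chromosome, H3K9me3 was divided by the library's own H3K9me3(−) median, then brought to a common level. That median was taken over windows with 1.60 to 4.48 RPKM in WT on OP50. Other H3K9me3 levels are RPKM as deposited, not scaled, unless stated. Pol II was normalized to depth only. The window fits (limma 3.58.1, R 4.3.3) took log2(RPKM + 1) and used a mean-variance trend and feeding as a block, over all strains and the 99742 windows with a mean of at least 3 RPKM, adjusted over all of them. For H3K9me3 limma gave every window the trend's spread (infinite prior degrees of freedom), so a window's own spread did not enter. Fold changes on this scale understate the change of low windows. Feeding contrasts used strain as a block. Ratios were tested by exact permutation (Python 3.11.15). The scripts were tested on simulated data.

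Named windows were the 6 highest H3K9me3 islands, the 6 highest Pol II windows, every GRH and GRTS window, the 5 largest falls and rises per mutant and mark that went the same way in every feeding (at most 1 per 5 kb), and the extreme 100-kb bins. Members and lists were chosen with earlier results of these data known. p-values measure the spread between these libraries, which are single preparations per strain and feeding. For the H3K9me3 calls that spread is the one the trend gives, not the window's own. Alternatives were scaling, pseudocount, filter, block, trend, limits and leaving out libraries. The depth counts cover counting error only.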

Additional observations from a re-analysis of the deposited data

How the results depend on the processing

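Counts are given in the order set-32, double mutant (met-2 set-25), triple mutant, hrde-1 against WT, and the lone feeding contrast is oma-1 RNAi against gfp RNAi for Pol II. For H3K9me3, depth normalization alone gave 26 windows lower and 8 higher in the triple mutant, 7 higher in the double mutant, and for the triple mutant against set-32 it gave 4 lower and 9 higher. A pseudocount of 5 gave 21 lower and 0 higher in the double mutant, 0 higher in set-32 and 4 lower in the triple mutant against set-32. A pseudocount of 0.5 gave 1 higher in the triple mutant and in hrde-1 and 2 higher in the triple mutant against set-32. With only WT and the mutant in the fit, set-32 had 0 lower and 0 higher, hrde-1 had 10 lower, and the triple mutant had 27 lower. For Pol II, scaling to the median of all windows gave 17 higher in set-32 and, for the triple mutant 104 lower and 33 higher, and 0 lower and 15 higher by feeding. A pseudocount of 5 gave 2 lower and 8 higher in set-32, 30 higher in the double mutant, 15 higher and 0 lower in the triple mutant, and 0 lower by feeding, and a pseudocount of 0.5 gave 3 lower in the triple mutant and 7 lower by feeding. Without the trend term set-32 had 0 lower and 1 higher, the double mutant 11 higher, the triple mutant 0 lower and 12 higher, and feeding 0 lower. The libraries share feedings by label. Without the replicate block, Pol II was higher in 19, 29, 32 and 5 windows and lower in 17, 0, 0 and 0, feeding gave 0 lower, and H3K9me3 was lower in 7, 34, 45 and 16.

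Leaving out a library or feeding gave ranges for H3K9me3 of 1 to 28, 15 to 50, 27 to 84 and 8 to 24 windows lower and 0 to 2, 0 to 9, 0 to 1 and 0 to 3 higher. The triple mutant had 0 to 5 lower and 0 higher against the double mutant, and 0 to 54 lower and 0 to 2 higher against set-32. For Pol II the ranges were 7 to 34, 3 to 74, 2 to 140 and 5 to 9 higher and 8 to 31, 0 to 3, 0 to 23 and 0 to 3 lower. Within these ranges, H3K9me3 was lower in 18 windows in the double mutant without WT on OP50 and in 73 in the triple mutant without WT on gfp RNAi, and the triple mutant against set-32 had 35 without the OP50 feeding and 36 without its own gfp RNAi library. Pol II was higher in 18 windows in set-32 without WT on oma-1 RNAi, and in the triple mutant in 39 without WT on gfp RNAi and 135 without hrde-1 on gfp RNAi. The single-library settings were chosen after seeing the data. The ratio of domain to centre in WT was 1.081 with a trimmed mean, 1.084 with a narrower centre, 1.071 with inner limits and 1.093 with means for H3K9me3, and 0.6457, 0.770 and 0.6557 for Pol II with the trimmed mean, narrower centre and inner limits. The hrde-1 H3K9me3 ratio was 1.10 with the trimmed mean. With the narrower centre the Pol II ratio of set-32 was 0.778 and that of the triple mutant 0.833, which was 0.771 with means. Without 1 feeding the geometric mean Pol II ratio was 0.707 to 0.772, and the 5 libraries left cannot reach an exact p under 0.05. Islands numbered 4 at the top 5% and 13 at a minimum of 2 windows. Of 928 alternative values for 44 calls of a named window in 1 comparison, 837 stayed past the threshold, 91 did not and 0 reversed, and 16 of the 44 calls passed under every alternative. Division by input was not run because inputs were not analysed here, and leaving out a Pol II feeding leaves no residual degrees of freedom, so no calls. The cause of these differences was not tested.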

Other observations

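Across the 2495 windows of the domain, windows with more H3K9me3 had less Pol II in every library pair of the same strain and feeding. Spearman's rho ran from −0.397 to −0.294 over 10 pairs in the domain and from −0.566 to −0.420 in the centre. In the domain it was −0.294 and −0.337 in WT (gfp RNAi, oma-1 RNAi) and −0.3 and −0.307 in the triple mutant. The relation was thus also seen in the triple mutant, which the paper describes as lacking detectable H3K9me3. The part of ChIP background in it was not tested. The rho values are descriptions across windows of 1 library pair, which share library depth and base composition and are not replicates.

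H3K9me3 was higher at 6270 kb in every mutant library than in any WT library. The window held 2.88, 6.31 and 4.14 RPKM in WT on OP50, gfp RNAi and oma-1 RNAi and 8.17 to 15.5 RPKM in the 12 mutant libraries. The domain medians were 6.40 to 8.29 RPKM in WT, 7.79 to 8.94 in set-32 and 7.08 to 8.31 in hrde-1. They were 9.76 to 10.2 in the double mutant and 9.83 to 10.0 in the triple mutant. The window was chosen by the rule for largest rises, and these values are not scaled. It was called in set-32 (log2 change 1.00, SE 0.25, limma adjusted p = 0.015; 0.029 to 0.65 over the 9 alternatives without the call) and met-2 set-25 (log2 change 1.14, SE 0.25, limma adjusted p = 0.00020; not called in 4 alternatives).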
